A study of Homo sapiens with 6 samples.

Results

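DMBT1 (deleted in malignant brain tumors 1, ENSG00000187908) was followed in NCI-H1299 cells, an established line from a human non-small cell lung tumour, with and without norepinephrine (NE). The gene was taken as the 1 row of that name among the 26025 genes of the deposited table. It was selected on the difference in its normalized counts between the NE and control libraries, so its values are given as a description and without a test. RNA was sequenced from 3 libraries of cells given 10 µM NE and 3 control (Ctrl) libraries. All cells were first starved in DMEM for 8 to 12 h and then kept for 48 h in RPMI-1640 with 2% FBS, with or without NE. The labels name the vehicle of the Ctrl cells as DMSO in one place and as PBS in another. All 6 libraries come from 1 cell line, and no label says that the replicates are separate cultures, so p-values measure the spread between these libraries, which may be technical.

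DMBT1 encodes a large secreted glycoprotein of mucosal surfaces, known in saliva as salivary agglutinin. It is built from many scavenger receptor cysteine-rich (SRCR) domains in tandem, followed by CUB domains and a zona pellucida domain. In the airway and the gut it binds bacteria, viruses and other defence proteins such as surfactant protein D, and its gene has been studied as a candidate tumour suppressor in brain, lung and digestive tract tumours. NE can act through beta-adrenergic receptors, cAMP, protein kinase A and the transcription factor CREB.

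The gene lies on the plus strand of chromosome 10 of hg38, and GENCODE v44 places it from 122560665 to 122643736. Its promoter is shown because the level of the transcript is the readout followed here. The 300 bases around the RefSeq start, 250 before it and 50 from it onward, occupy chr10:122560504-122560803 on the plus strand of GRCh38.p14. In the sequence below capitals mark each match to TATAAA on either strand.
DMBT1 promoter: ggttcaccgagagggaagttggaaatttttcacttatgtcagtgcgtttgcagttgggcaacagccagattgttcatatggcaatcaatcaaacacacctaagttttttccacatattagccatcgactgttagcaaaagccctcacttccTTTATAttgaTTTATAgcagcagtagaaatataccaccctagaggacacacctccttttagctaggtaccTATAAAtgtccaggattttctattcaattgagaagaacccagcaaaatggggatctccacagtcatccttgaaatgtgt
The match nearest the start spans -29 to -24 on the gene's strand, counted with the start as 0, and the 2 others, at -99 and -89, are on the opposite strand. TATAAA was present in 12.0% of the 27305 promoters of the same length. The other motifs searched were the full cAMP response element TGACGTCA, its half-site TGACG, the NR4A site AAAGGTCA, the AP-1 site TGACTCA, the E-box CACGTG, the CCAAT box and the STAT site TTCNNNGAA. None of these motifs occurred on either strand of this window. The half-site, which the full element contains, occurred in 6828 of the 27305 promoters, the full element in 1.98% and the NR4A site in 1.21%. The AP-1 site occurred in 4.92%, the E-box in 7.43%, CCAAT in 35.7% and the STAT site in 7.88%. The GC content of the window was 40.7%, against a median of 58.3% over all promoters, and 12.8% of the promoters were lower. The window held 3 CpG dinucleotides, against a median of 14. GENCODE also starts transcripts of the gene upstream of the RefSeq start, at 122560665, inside this window.

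The transcript is repetitive, which bears on how reads can be assigned to it. The canonical transcript has 56 exons with 7984 bases, and 14 of the exons are exactly 324 bases long. These 14 exons hold 56.8% of the exon bases. Compared position by position, the 91 pairs among them were between 90.4% and 100% identical, with a median of 94.8%, and 4 pairs were identical throughout. The first stretch of 1 read length is shown for 4 of the 14, since it shows whether a read can tell the exons apart. Exons 29, 32, 35 and 38 share the same bases and stand as the first line. Capitals in the other lines mark the bases that differ from that line.
Exon 29 (chr10:122601797-122601921): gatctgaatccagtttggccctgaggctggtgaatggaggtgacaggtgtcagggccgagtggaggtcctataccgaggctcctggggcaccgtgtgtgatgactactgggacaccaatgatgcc
Exon 16 (chr10:122586060-122586184): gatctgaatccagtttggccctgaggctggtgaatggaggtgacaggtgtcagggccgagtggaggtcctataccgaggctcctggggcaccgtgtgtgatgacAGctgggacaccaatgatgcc
Exon 7 (chr10:122576399-122576523): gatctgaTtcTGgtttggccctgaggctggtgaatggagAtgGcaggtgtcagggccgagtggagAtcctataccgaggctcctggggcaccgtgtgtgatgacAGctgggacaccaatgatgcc
Exon 44 (chr10:122621057-122621181): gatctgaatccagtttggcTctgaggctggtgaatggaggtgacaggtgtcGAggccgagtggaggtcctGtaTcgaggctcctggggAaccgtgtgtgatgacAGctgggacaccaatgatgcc
Exon 16 differed at 2 of these positions, and exons 7 and 44 at 8 each. Of the 4056 windows of 1 read length that lie within a single exon, 1075 (26.5%) occurred more than once in hg38, up to 4 times. None of the 4056 windows had an exact copy outside DMBT1. The repeated windows fell in 6 exons, namely 13, 23, 29, 32, 35 and 38. A read from such a window has several equally good positions in the same gene. Mapping is described as run with default parameters, the handling of reads with several positions in counting is not given in the sources used here, and its part in the level of DMBT1 was not tested.

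**Figure D1:**
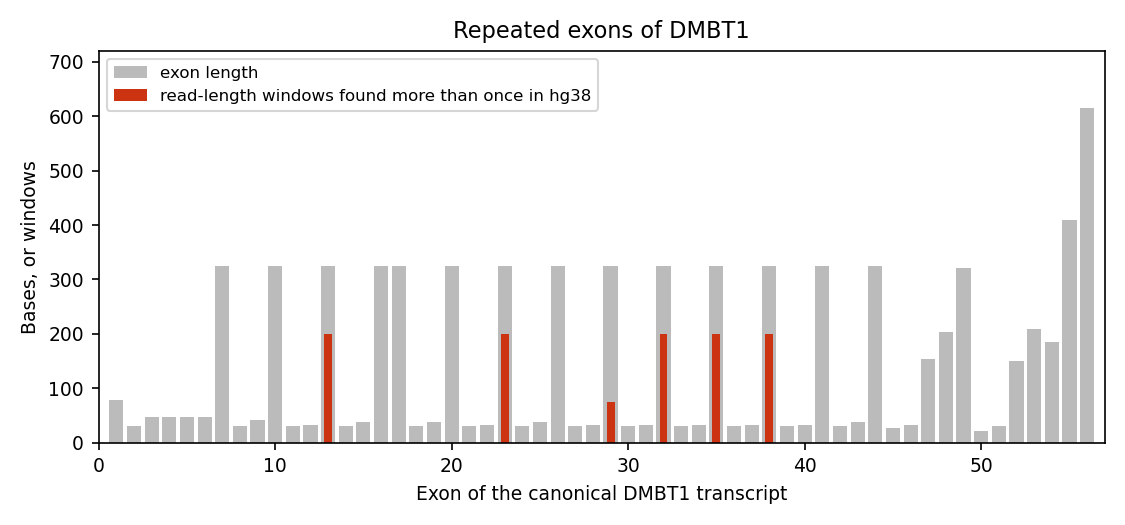
Length of each of the 56 exons of the canonical DMBT1 transcript in bases (grey bars) and the number of its windows of 1 read length that occur more than once in hg38 (red bars), by exon number. The 14 bars of 324 bases recur from exon 7 to exon 44, and 6 of them hold repeated windows.

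Each deposited value is a gene's reads over the size factor of its library, called a normalized count here. The libraries held between 16852751 and 17979206 reads on genes. Ctrl replicate 3 stood apart, with 7305 genes at 0 reads where the other 5 libraries had between 3954 and 4833. Of the genes listed as markers of this line, VIM, KRT8, KRT18 and CDH2 all had at least 964 normalized counts in every library, and the epithelial adhesion genes CDH1 and EPCAM had at most 4.84. Markers of blood, endothelial and stromal cells summed to between 72.3 and 76.4 normalized counts in Ctrl and between 51.2 and 87.9 in NE libraries over 8 of 10 genes, with PTPRC and CD3E not analysed here.

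DMBT1 was low in Ctrl cells and more than 10 times higher with NE. Its normalized counts were 89.0, 98.5 and 72.5 in Ctrl replicates 1, 2 and 3. In NE replicates 1, 2 and 3 they were 1424, 1226 and 1312. Every NE library lay above every Ctrl library, as was so for 29.7% of the genes tested. The Ctrl mean was 86.7 ± 13.2 (SD, n = 3). The NE mean was 1321 ± 99.2 (SD, n = 3), and the ratio of the means was 15.2. Among the 9 pairs of an NE and a Ctrl library the ratio ran from 12.4, NE replicate 2 over Ctrl replicate 2, to 19.6, NE replicate 1 over Ctrl replicate 3. On log2(normalized count + 1) the difference was 3.92 with a standard error of 0.15, and it was 3.80 without Ctrl replicate 3. In these bulk samples a larger share of cells with the transcript and more transcript per cell cannot be told apart.

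**Figure D2:**
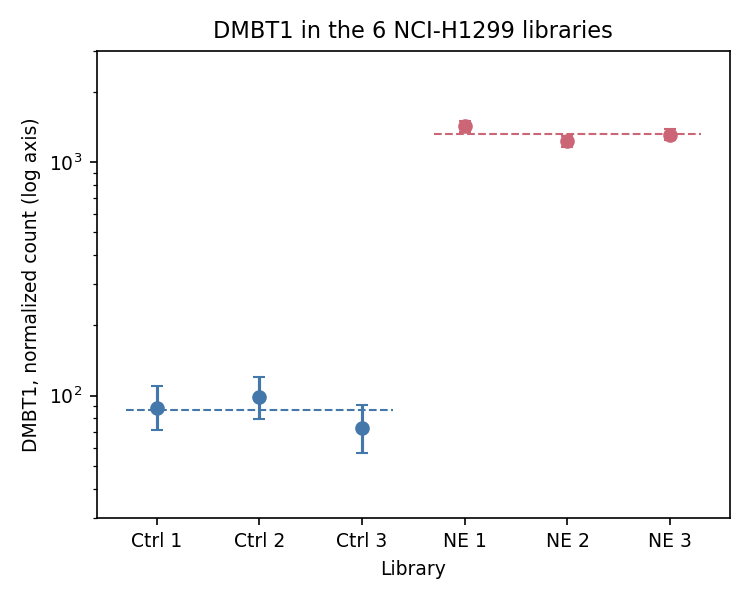
Normalized count of DMBT1 (log axis) in each of the 6 libraries, with exact 95% Poisson intervals as bars and the group means as dashed lines. The 3 Ctrl libraries lie between 72.5 and 98.5 and the 3 NE libraries between 1226 and 1424.

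The Ctrl values rest on few reads. DMBT1 had 85, 95 and 74 reads in Ctrl replicates 1, 2 and 3, and 1441, 1266 and 1436 in the NE replicates. The exact 95% Poisson interval of the lowest library, Ctrl replicate 3, ran from 56.9 to 91.0 normalized counts and that of Ctrl replicate 2 from 79.7 to 120.4, so the intervals overlapped. In NE-treated cells replicate 1 (1351 to 1499) and replicate 2 (1160 to 1296) did not overlap. These intervals cover counting error only. The coefficient of variation was 15.2% among Ctrl libraries, where counting alone gives 10.9%, and 7.51% among NE libraries, where counting alone gives 2.69%. On the log2 scale its SD was 0.22 in Ctrl and 0.11 in NE libraries. The Ctrl SD was above that of 38.4% of the 500 tested genes nearest in Ctrl level, and the NE SD above that of 54.0% of the 500 nearest in NE level.

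Per length, DMBT1 stood near the middle of the listed genes in Ctrl and much higher with NE. FPKM, the reads per kilobase of exon scaled to the reads of the library, was recomputed with the 9375 bases of merged exons. It was 0.512 ± 0.0692 (SD, n = 3) without NE and 8.59 ± 0.503 (SD, n = 3) with it. Of the 25813 genes with an exon length, between 46.2% and 49.2% were lower than DMBT1 in FPKM in the Ctrl libraries, and between 80.2% and 82.1% in the NE libraries. By normalized count it stood 10584th to 11091st of the listed genes in Ctrl libraries and 2702nd to 3076th in NE libraries.

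The difference was then placed among the 15013 genes whose mean reached 10 normalized counts, which were fitted with limma. Calls needed an adjusted p (Benjamini-Hochberg) under 0.05 together with a log2 fold change of 1 or more in either direction, and 7.47% of the genes were called higher and 6.55% lower with NE. DMBT1 had the 10th largest log2 fold change. Of the 9 genes above it, 7 had at most 2.78 normalized counts on average in Ctrl and at most 94.7 with NE. The remaining pair were the orphan nuclear receptor genes NR4A2 and NR4A3, at 6.51 and 5.92. Among the 14588 tested genes with a Ctrl mean of at least 10, a limit chosen after the values were seen, DMBT1 ranked 3rd, and the next, NID2, stood at 3.65. The rank moved with the processing, from 3 with a pseudocount of 10 to 27 with a pseudocount of 0.1.

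None of the 500 tested genes nearest in level had as large a log2 fold change. The 500 tested genes nearest to DMBT1 in mean over the 6 libraries had means between 658 and 753 normalized counts, and their log2 fold changes ran from -1.94 to 1.76 with a median of -0.02. Of these 500 genes 32 were called higher and 36 lower, and none had a log2 fold change as large as that of DMBT1. The same count of 0 was found among the 500 genes nearest in Ctrl level, where the highest log2 fold change was 3.54, and among the 500 nearest in NE level, where it was 3.01. The difference in mean normalized counts, 1234, was the 314th largest of all listed genes.

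DMBT1 was richer in GC than most genes that were called higher. Those genes were poor in GC, with a median of 40.7% in their exons against 47.5% over all tested genes, whereas the exons of DMBT1 had 54.9%. Of the 1114 genes called higher with a known GC content, 94.7% had less GC than DMBT1. The 500 tested genes nearest in GC, between 54.3% and 55.5%, had a median log2 fold change of -0.54, and 9 of them were called higher and 59 lower. None of them had a log2 fold change as large as that of DMBT1, and the highest was 2.88. With the GC trend of every library removed, the log2 fold change of DMBT1 was 4.35. The 500 genes nearest in exon length had a median of 0.30 and a highest value of 3.29.

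**Figure D3:**
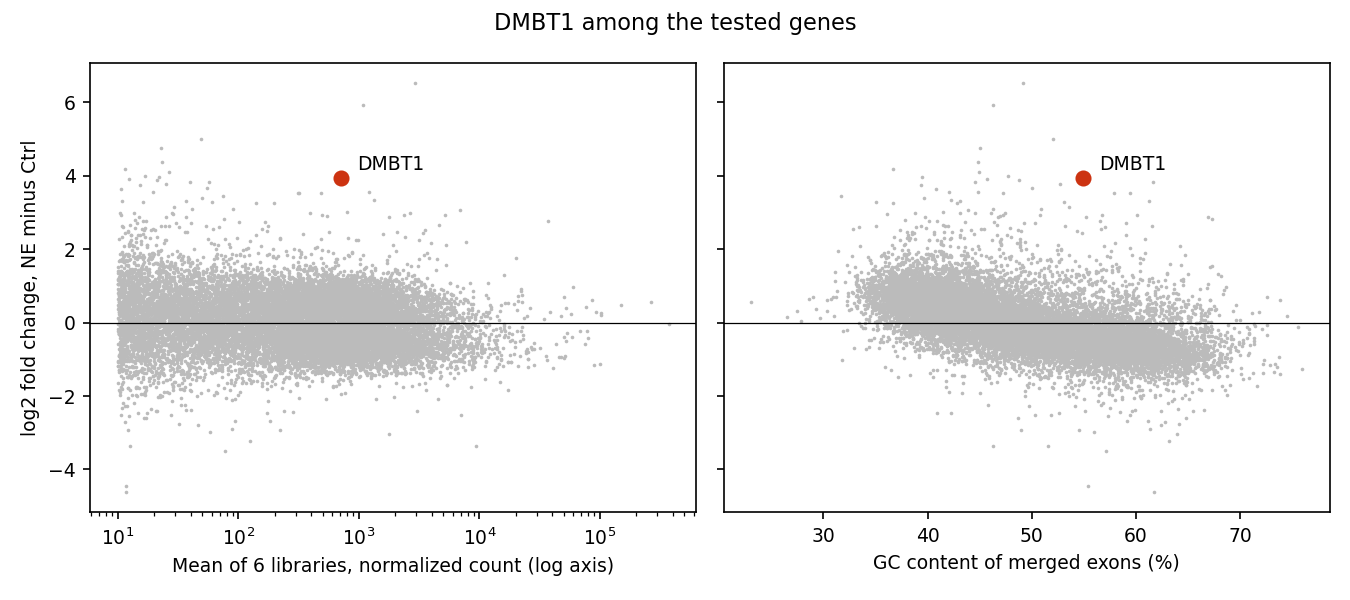
log2 fold change (NE minus Ctrl) of the tested genes (grey), with DMBT1 in red. The left panel plots the 15013 genes against their mean normalized count over the 6 libraries (log axis). The right panel plots the 14955 of them with a known GC content against the GC content of their exons in percent. DMBT1 lies at 3.92, above the 500 genes nearest to it in either measure.

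None of the tested genes that share the SRCR domain with DMBT1 was called higher. Of 24 other members of the superfamily, 13 were listed and 8 were tested. Of the 8, 0 were called higher and 1 was called lower by limma, where 7.47% and 6.55% of all tested genes were called. At an unadjusted p under 0.05, met by 28.4% of all tested genes as higher and 28.7% as lower, limma had 0 members higher and 5 lower, and edgeR and DESeq2 had 0 higher and 6 lower. The same 0 and 5 were found with limma at an adjusted p under 0.05 and no fold criterion. For that criterion the share of all tested genes was not computed. The median log2 fold change was -0.77 over the 8 members and 0.01 over all tested genes. After removal of the GC trend the median over the 8 was -0.28, and 1 member, CD163L1, was lower at an adjusted p under 0.05. SSC4D, a soluble SRCR protein, had 32.5, 42.5 and 55.9 normalized counts in Ctrl and 14.8, 10.7 and 12.8 in NE libraries, with no overlap. It fell by 1.67 on the log2 scale (standard error 0.35, limma adjusted p = 0.00369). After removal of the GC trend SSC4D was at -1.03 with an adjusted p of 0.0614 from limma, so that the call was lost.

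The SRCR members with the highest FPKM were extracellular enzymes and ligands. LOXL2, a lysyl oxidase-like enzyme that cross-links collagen, had 2889, 2708 and 2127 normalized counts in Ctrl and 1999, 2010 and 1845 in NE libraries. Its log2 fold change was -0.39, under the fold criterion, and 0.10 after removal of the GC trend. LGALS3BP, a secreted ligand of galectin-3, stood at -0.63, and LOXL3, a relative of LOXL2, at -0.91, both with no overlap of the groups. LGALS3BP was at -0.02 and LOXL3 at -0.50 once the GC trend was removed. CD163L1, a scavenger receptor of the same family as CD163, was at -0.98 (adjusted p = 0.00355 from limma), just short of the fold criterion, and it was called in 2 of the 6 leave-one-out fits, those without Ctrl replicate 3 or NE replicate 1. LOXL4 was at -1.06 with an adjusted p of 0.13 from limma, and without Ctrl replicate 3 it was at -1.57 (adjusted p = 0.00906 from limma). The brain protease gene PRSS12 and the soluble SSC5D stood at 0.06 and 0.12. Of the remaining 5 listed members, MSR1, TMPRSS5, TMPRSS15, HPN and CORIN, none exceeded 8.89 normalized counts in any library. The other 11 members, among them CD163, CD5 and MARCO, were not analysed here.

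Within this family the order of levels per length changed. In each Ctrl library DMBT1 was 7th of the 14 listed members by FPKM, behind LOXL2, LGALS3BP, PRSS12, CD163L1, LOXL3 and SSC4D. In each NE library it was 3rd of 14, behind LOXL2 and LGALS3BP. LOXL2 had 23.8 FPKM in Ctrl and 19.9 with NE, and LGALS3BP 13.9 and 9.84, so that both remained above the 8.59 of DMBT1 in NE-treated cells.

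The zona pellucida domain, at the end of the DMBT1 protein, is shared with 14 other genes of the list used here, of which 9 were listed and 5 tested. Of the 5, 1 was called higher and 1 lower, where 7.47% and 6.55% of all tested genes were. CUZD1, which like DMBT1 carries CUB and zona pellucida domains, had 39.8, 34.2 and 6.86 normalized counts in Ctrl and 70.2, 61.0 and 74.9 in NE libraries. It rose by 1.63 on the log2 scale (standard error 0.56, adjusted p = 0.0357 from limma). It was 0.87 without Ctrl replicate 3 (adjusted p = 0.00758 from limma), and 2 of the 6 leave-one-out fits called it. After removal of the GC trend it was at 1.34 with an adjusted p of 0.102 from limma. ENG, the TGF-beta co-receptor endoglin, had 271, 306 and 277 normalized counts in Ctrl and 191, 115 and 126 in NE libraries. It fell by 1.01 (adjusted p = 0.00303 from limma), lay at -0.39 after removal of the GC trend, and was called in 3 of those 6 fits and neither by edgeR nor by DESeq2. TGFBR3, the co-receptor betaglycan, was at 0.67 with 548, 646 and 777 normalized counts in Ctrl and 1293, 992 and 871 in NE libraries. ZP3, an egg coat protein gene, was at -0.58, and TECTA of the inner ear matrix at 1.49 with overlapping groups. The 4 listed members that were not tested, ZP1, ZP2, UMODL1 and OIT3, had at most 2.09 normalized counts.

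Proteins known to bind DMBT1 in mucosal fluids include collectins, mucins and galectin-3. Of 13 such genes 3 were listed. LGALS3, which encodes galectin-3, was the 1 tested member, with 1283, 1232 and 939 normalized counts in Ctrl and 845, 772 and 721 in NE libraries. The groups did not overlap, as for 28.9% of tested genes with all NE libraries below Ctrl, and the log2 fold change was -0.55, under the fold criterion. SFTPD, the gene of surfactant protein D, had at most 1.94 and LTF, the gene of lactoferrin, at most 4.15 normalized counts in any library. The other 10, among them SFTPA1, MUC5B and PIGR, were not analysed here.

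Of 25 secretory and mucosal defence genes 8 were listed and 1, the mucin gene MUC1, was tested. MUC1 had 30.4, 19.7 and 12.7 normalized counts in Ctrl and 21.7, 28.1 and 44.8 in NE libraries, with overlapping groups, a log2 fold change of 0.59 and an adjusted p of 0.271 from limma. After removal of the GC trend it was at 1.16 with an adjusted p of 0.0453 from limma, past the threshold. The other 7, BPIFB1, LCN2, LYZ, LTF, MUC4, MUC20 and SPDEF, had at most 12.8 normalized counts in any library. Summed over the 8 genes the normalized counts were between 24.5 and 52.4 in the Ctrl libraries, and with NE between 36.6 and 56.7, and these ranges overlapped. Of 11 alveolar and club cell markers 7 were listed and 2, ABCA3 and AGER, were tested. Neither was called, where 14.0% of all tested genes were. ABCA3, a lipid transporter of surfactant bodies, had at least 1141 normalized counts in every library, while NKX2-1, SFTPB and NAPSA had at most 6.78. The log2 fold change of ABCA3 was -0.75 (adjusted p = 0.00228 from limma), under the fold criterion, with every NE library below every Ctrl library. After removal of the GC trend ABCA3 was at -0.16. AGER was at -0.28 with overlapping groups.

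Genes of the pathways reported to induce DMBT1 in other epithelia, namely NOD2 and TLR4 signalling through NF-kB, TNF and interleukin-22 through STAT3, were examined next. Of 11 such genes 10 were listed and 7 tested, and by limma 0 were called in either direction, where 14.0% of all tested genes were. edgeR and DESeq2 also called 0. At an unadjusted p under 0.05 limma had 1 higher and 4 lower, where 28.4% and 28.7% of all tested genes were. At that threshold edgeR had 0 higher and 4 lower. In limma 3 of the 7 had an adjusted p under 0.05 with no fold criterion, all of them lower. The share of all tested genes that met this last criterion was not computed. RELA, a subunit of NF-kB, had 3024, 2998 and 2378 normalized counts in Ctrl and 1716, 1703 and 1759 in NE libraries, a log2 fold change of -0.69. NFKB1 was at -0.62 and TNFRSF1A, the TNF receptor gene, at -0.62. After removal of the GC trend NFKB1 was at -1.11 and was called, while RELA was at -0.14 and TNFRSF1A at -0.18. STAT3 was at -0.05, and the receptor gene IL22RA1 at -0.58 with an adjusted p of 0.0519 from limma. RIPK2 and IL10RB were at 0.51 and 0.53 and were not called. TLR4 and TNF had at most 2.96 normalized counts in any library and MYD88 at most 13.7, and NOD2 was not analysed here.

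**Figure D4:**
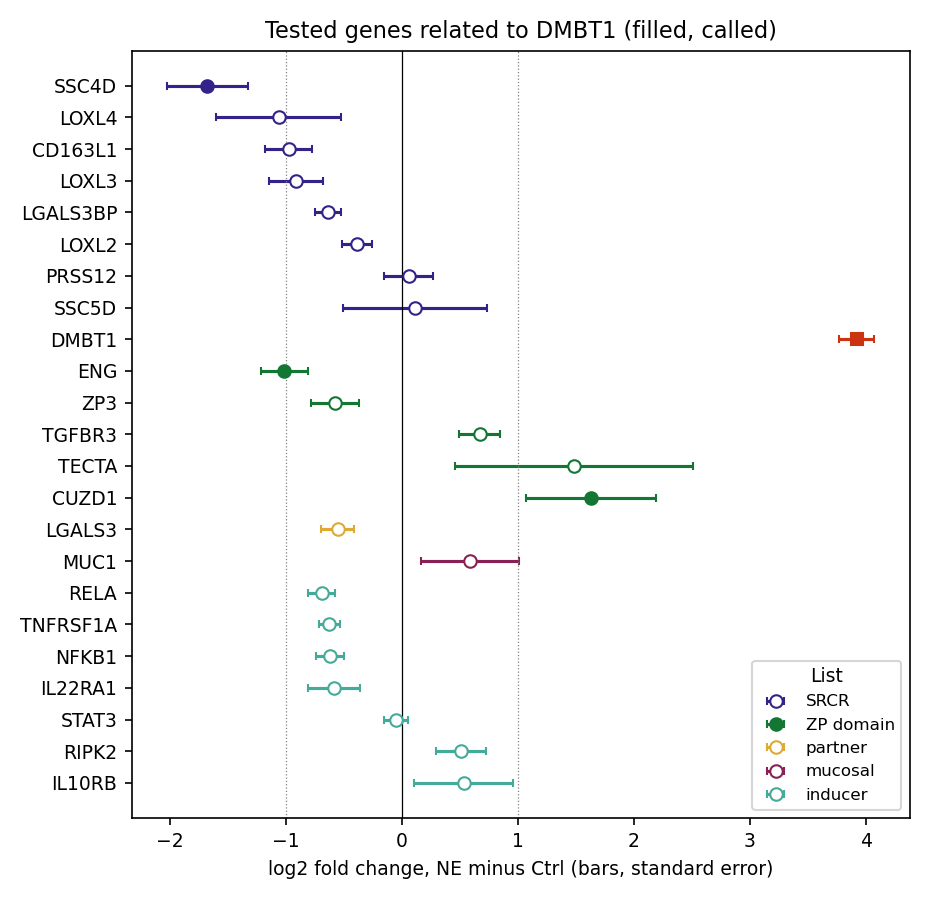
log2 fold change (NE minus Ctrl) with its standard error for DMBT1 (red square) and for the tested members of 5 lists, namely SRCR domain, zona pellucida domain, binding partners, mucosal defence and reported inducers. Filled circles passed the adjusted p of 0.05 and the fold criterion (dotted lines at -1 and 1). DMBT1, which was selected on this difference, lies to the right of every other gene shown. The cAMP and CREB list, in which NR4A2 (6.51) and NR4A3 (5.92) exceed DMBT1, is not drawn.

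The genes known to answer cAMP and CREB moved in the same libraries. Of 16 such genes 15 were tested, and 10 were called higher and 1 lower, where 7.47% and 6.55% of all tested genes were. The list was drawn up with earlier results of these libraries known, so that its direction is not independent evidence. NR4A2 had 57.6, 64.3 and 63.7 normalized counts in Ctrl and 5675, 5702 and 5780 in NE libraries. NR4A2 rose by 6.51 and NR4A3 by 5.92 on the log2 scale. CREM, a cAMP response element modulator, rose by 3.33, and the phosphatase gene DUSP1 by 2.88. The phosphodiesterase genes PDE3A, PDE4B and PDE4D, whose products break down cAMP, rose by 3.40, 3.25 and 3.01. NR4A1 rose by 2.92, PPARGC1A by 1.23 and FOS by 1.16 on the log2 scale. The limma adjusted p of these genes ran from 4.9e-09 for NR4A2 to 0.0102 for PPARGC1A. PPARGC1A lost its call without Ctrl replicate 3, at 0.89, and after removal of the GC trend, at 0.67. FOSB, PER1, CREB1 and ATF3 were not called, at 0.20, 0.28, 0.54 and -0.10. The log2 fold change of DMBT1 exceeded those of all tested members but NR4A2 and NR4A3.

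The 5 tested genes with the most similar profile over the 6 libraries were NPTX1, TPPP, PPP1R3C, CREM and CSGALNACT1. Likeness was the Euclidean distance between the log2 values after each gene's own Ctrl mean was subtracted, and it was 0.740, 0.771, 1.003, 1.13 and 1.14 in this order. NPTX1, a neuronal pentraxin gene, had 52.4, 50.8 and 44.1 normalized counts in Ctrl and 646, 577 and 508 in NE libraries. TPPP, which promotes tubulin polymerization, had 51.3, 48.7 and 49.0 in Ctrl and 647, 571 and 534 in NE libraries. Both were richer in GC than DMBT1, at 57.9% and 59.4%. PPP1R3C, a glycogen-targeting subunit of protein phosphatase, and CSGALNACT1, an enzyme of chondroitin sulfate synthesis, stood at 3.56 and 3.54 on the log2 scale. The 5 genes were picked for this likeness, so that no test was read for them.

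The genes around DMBT1 on chromosome 10 had smaller log2 fold changes. Within 500000 bases of either end 23 other genes are annotated, of which 15 were listed and 11 tested. Of the 11, 3 were called higher and 0 lower by limma, by edgeR and by DESeq2, where limma called 7.47% and 6.55% of all tested genes. At an unadjusted p under 0.05 limma had 7 higher and 0 lower, where 28.4% and 28.7% of all tested genes were. The log2 fold changes ran from -0.56 to 1.63 with a median of 0.42. HTRA1, the nearest tested gene and a secreted serine protease gene that ends 45758 bases before DMBT1, had 986, 989 and 1063 normalized counts in Ctrl and 1139, 1400 and 1501 in NE libraries. Its log2 fold change was 0.40, and 0.94 after removal of the GC trend, both under the fold criterion. PLEKHA1, a lipid-binding adaptor gene 128311 bases before DMBT1, rose by 1.06 (adjusted p = 0.00108 from limma). ACADSB, a mitochondrial acyl-CoA dehydrogenase gene 365243 bases after it, rose by 1.04 (adjusted p = 0.00114 from limma). PLEKHA1 and ACADSB were poor in GC, at 37.4% and 39.2%, and after removal of the GC trend they were at 0.41 and 0.46. CUZD1, described above, lies 188422 bases after DMBT1. None of the 11 was called once the GC trend was removed, where 549 of 14955 genes were called higher and 346 lower. With 1 library left out 0 were called without NE replicate 1, 1 without Ctrl replicate 1 and 2 without each of the others. Over all 15013 genes these fits called between 816 and 1609 higher and between 777 and 1512 lower. TACC2, FAM24B, C10orf88B, C10orf88, PSTK, IKZF5 and HMX3 were between -0.56 and 0.54 and were not called. DMBT1L1, a pseudogene related to DMBT1 that starts 85693 bases after it, and SPADH were not analysed here.

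**Figure D5:**
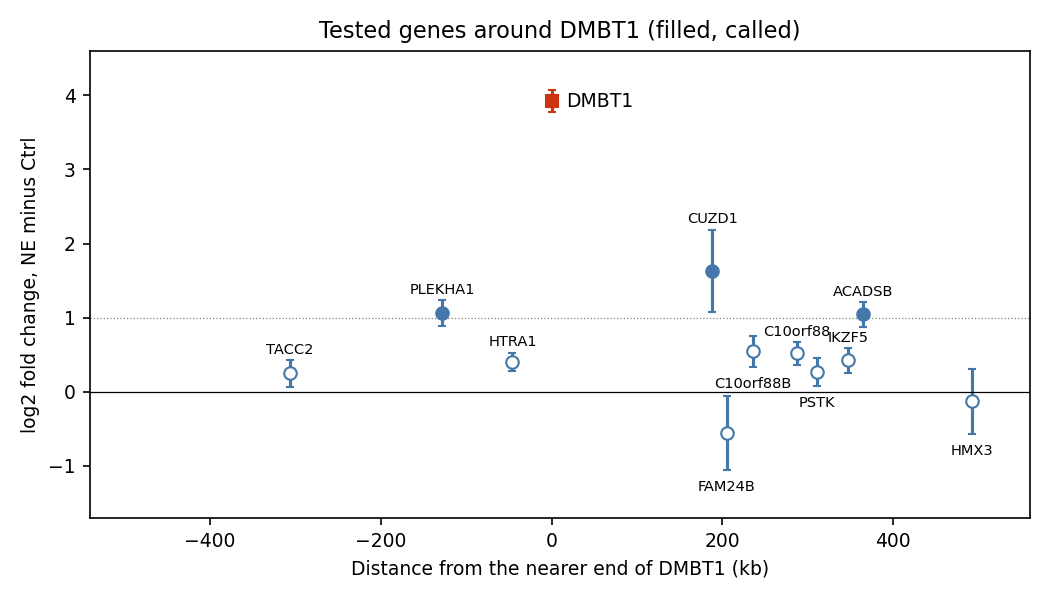
log2 fold change (NE minus Ctrl, bars give the standard error) of the 11 tested genes within 500000 bases of DMBT1 against the distance from the nearer end of DMBT1 in kb, with DMBT1 as a red square at 0. Filled circles mark the 3 called genes, PLEKHA1, CUZD1 and ACADSB, which lie at 1.63 or below while DMBT1 lies at 3.92.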

How the data were processed

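RNA from NCI-H1299 cells was sequenced as paired reads. The authors aligned them to hg38 with HISAT2 2.0.5 at its default parameters, counted them per gene with featureCounts 1.5.0-p3 and used DESeq2. FPKM is the unit the methods name. The deposited signal is instead reads per gene scaled by 1 size factor per library, since 100% of a library's values were whole multiples of 1 number (tolerance 0.01). Reads were recovered by dividing by it. The letter and number of each column gave its library. Settings for strand and for reads with several positions in the counting step are not given in the sources used here.

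The main test was limma 3.58.1 (lmFit, then eBayes with a trend) on log2(value + 1), for the 15013 genes whose mean reached 10. It was first run on simulated counts, where it recovered 94.5% of the genes changed by 1.5 on the log2 scale and called 2 unchanged genes. The simulated counts had a single dispersion for all genes and neither a GC trend nor an outlying library. These figures therefore do not measure its accuracy on the real libraries. With 3 libraries per group an exact permutation test cannot go below p = 0.1. GC content and length came from the merged exons of GENCODE v44 for 25813 of 26025 genes, matched by Ensembl identifier, and promoters from RefSeq. Alternatives were edgeR 4.0.16, DESeq2 1.42.0 and voom on the recovered reads, pseudocounts of 0.1 and 10, no filter, TMM and quantile scaling, a replicate block, removal of a natural spline on GC with 5 degrees of freedom, and each library left out. DMBT1 and the 9 lists of genes were chosen with earlier results of these data known. Named genes were DMBT1, called list members and the most abundant uncalled ones, the 5 most similar profiles and the genes within 500000 bases. The exception is markers of the line and of blood, endothelial and stromal cells, given by level only and without their calls. The other tested members were named after their values were seen, and members below the filter are given by their highest value. Of the members of these lists, 2 are not reported here.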

Additional observations from a re-analysis of the deposited data

How the results depend on the processing

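DMBT1 was higher with NE in all 16 alternatives, and in 15 of them its log2 fold change moved by less than the spread between replicates (0.17). Removal of the GC trend gave 4.35, and the fits without 1 library ran from 3.80 without Ctrl replicate 3 to 4.02 without Ctrl replicate 2. Removal of the GC trend also left 549 genes higher and 346 lower, 0 SRCR members and 1 secretory and mucosal defence member, MUC1. Leaving out 1 library gave 816 to 1609 higher genes and 777 to 1512 lower ones. Both counts peaked when Ctrl replicate 3 was left out. In these fits from 1 to 3 SRCR members and 0 secretory and mucosal defence members were called. Quantile normalization called 3 SRCR members, SSC4D, CD163L1 and LOXL4. The cause of these changes was not tested. On the recovered reads edgeR called 1057 genes higher and 1096 lower, and DESeq2 1099 and 1049. With a replicate block the log2 fold change of DMBT1 was 3.92, with 1049 genes higher and 924 lower, 1 SRCR member and 0 mucosal members called. Deviations of libraries with the same number correlated at -0.16, 0.08 and -0.15. No Ctrl library correlated best with the NE library of its own number. With 3 libraries per group these correlations cannot settle whether libraries of the same number were handled together. The low number of Ctrl reads, 74 to 95, limits the precision of the ratio, and 3 libraries per group limit every test.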

Other observations

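MUC13, a transmembrane mucin gene of epithelia, was outside the lists and was picked after its values were seen, as 1 of the genes with a larger log2 fold change than DMBT1. It had 1.047, 0 and 3.92 normalized counts in Ctrl replicates 1, 2 and 3 and 43.5, 56.2 and 33.8 in the NE replicates. The groups did not overlap, and its Ctrl level is that of a few reads, so that its fold is not given.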
